A study of Mus musculus with 18 samples.

Results

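The transcripts described here encode collagens of the membranes and vessels of the brain, with a proteoglycan that binds collagen. They are Col6a1 and Col6a2 (collagen VI), Col4a1 and Col4a2 (collagen IV), Col1a1 and Col1a2 (collagen I), Col3a1 (collagen III) and Dcn (decorin), 8 of the 32812 genes named in the table of transcript counts. Col6a1 was chosen by its difference in total mRNA between the genotypes in earlier work on these same libraries, and the others were added by name as its family and neighbours in the matrix. Each gene was read from the transcript accession with most counts over 12 libraries. The values come from brains of male C57BL/6 mice aged 8 weeks, 3 with a knockout (KO) of Ftsj1 and 3 wild type (WT), with no other allele or agent named. Ftsj1 encodes a methyltransferase that modifies the ribose of anticodon-loop nucleotides in tRNA for phenylalanine and some other amino acids, and how the KO allele was made is not given in the sources used here. Every mouse gave a library of polyadenylated total mRNA and a library of ribosome-contained mRNA, the fragments that ribosomes protect, so each group holds 3 libraries of separate animals.

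Collagens are triple helices wound from 3 chains, and the helix forms only where glycine stands at every 3rd residue. Collagens I and III build the fibrils of the meninges and of the sheaths of larger vessels, collagen IV forms the sheet of the basement membrane under endothelium and against astrocyte endfeet, and collagen VI forms beaded filaments that link fibrils to basement membranes. In brain these chains are known mainly as products of meningeal and perivascular fibroblasts, mural cells and endothelium, cells that are few beside neurons and glia. Decorin is a small leucine-rich proteoglycan that binds collagen fibrils and has no triple helix.

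The coding sequences show what sets the collagen mRNAs apart for a translating ribosome, a glycine codon at every 3rd position over long runs. A stretch of 60 bases from the start of the longest such run is printed for each collagen, and codons 100 to 119 of decorin, a fixed position used because it has no run, are printed for contrast, with every glycine codon (GGN) in capitals. Sequences are from GENCODE release M21 on GRCm38, 5′ to 3′ in the sense of the mRNA, and no coding sequence was matched to the accession used for Col4a1.
Col6a1: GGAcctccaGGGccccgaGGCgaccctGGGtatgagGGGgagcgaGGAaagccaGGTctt
Col6a2: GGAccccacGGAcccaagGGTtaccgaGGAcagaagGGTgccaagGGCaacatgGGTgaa
Col4a2: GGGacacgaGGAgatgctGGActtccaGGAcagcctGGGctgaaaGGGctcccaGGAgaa
Col1a1: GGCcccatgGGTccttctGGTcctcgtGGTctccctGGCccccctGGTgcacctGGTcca
Col1a2: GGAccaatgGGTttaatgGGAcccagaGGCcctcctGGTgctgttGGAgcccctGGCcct
Col3a1: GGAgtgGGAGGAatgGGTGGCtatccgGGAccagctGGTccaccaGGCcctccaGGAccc
Dcn: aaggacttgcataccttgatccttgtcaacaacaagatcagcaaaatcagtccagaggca
The runs held 338 glycine codons in Col1a1, 339 in Col1a2 and 344 in Col3a1, against 87 in Col6a1, 87 in Col6a2 and 66 in Col4a2. The stretch of decorin happens to hold 0 glycine codons, while its whole coding sequence has 5.93%, near the median. Decorin had no run longer than 1, and the median over 5523 tested rows with a coding sequence was 2. Runs of 20 or more occurred in 17 of those 5523 rows. Glycine codons made up between 26.8% and 28.3% of codons in Col1a1, Col1a2, Col3a1 and Col4a2, 15.3% in Col6a1 and 15.2% in Col6a2, against a median of 6.54% over the same rows.

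The codons for phenylalanine, TTT and TTC, are read by a tRNA that is a known substrate of the enzyme lost in the KO mice. They were rare in the fibrillar collagens: 1.79% of codons in Col1a1, 1.603% in Col1a2 and 1.71% in Col3a1, shares that exceeded those of 9.69%, 7.48% and 8.65% of the rows. Col6a1 had 3.22%, Col6a2 3.68% and Col4a2 3.69%, close to the median of 3.64%, and Dcn had 3.95%. These are properties of the reference sequence and do not differ between the groups.

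**Figure D1:**
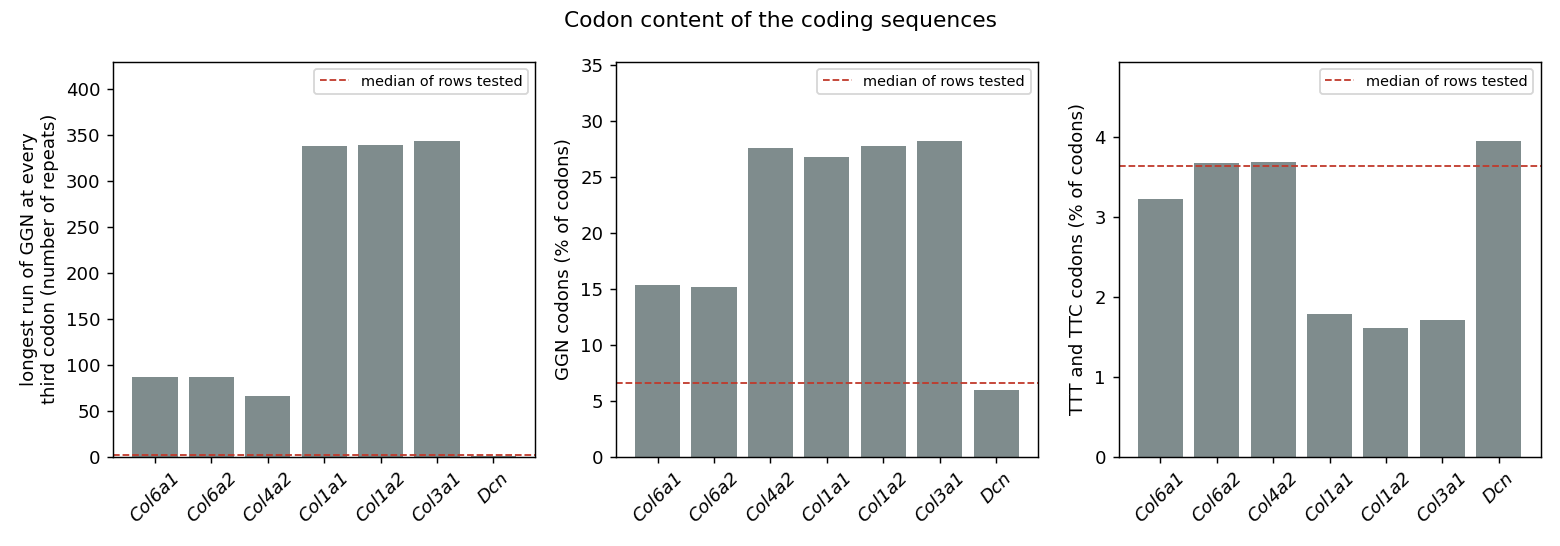
Length of the longest run of glycine codons (GGN) at every 3rd codon, share of GGN codons and share of phenylalanine codons (TTT and TTC) in the coding sequence of 7 genes, with the median over tested rows as a dashed line. Col1a1, Col1a2 and Col3a1 have runs of 338 to 344 glycine codons and the lowest phenylalanine shares of the 7, and Dcn has no run.

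Libraries of total mRNA held between 3301634 and 3459406 counts in KO and between 2024748 and 3302937 in WT, and those of ribosome-contained mRNA from 1055741 to 1142062 in KO and from 1165451 to 1560192 in WT. The 8 genes took 0.0553% to 0.0601% of the counts of total mRNA in KO mice, against 0.0469% to 0.0532% in WT mice, and 0.104% to 0.124% of ribosome-contained counts in KO mice, against 0.110% to 0.138% in WT mice. Ftsj1 itself had no count in any of the 12 libraries, so the knockout could not be checked from this table. Neuron markers (Snap25, Syt1, Rbfox3, Tubb3, Nefl, Map2 and Stmn2) summed to 3854 to 4051 CPM (read counts put on one common library scale) in KO total mRNA and to 4096 to 4118 CPM in WT total mRNA, so the tissue is brain by its markers. In whole tissue, a change in the number of cells of a type and a change in mRNA per cell cannot be told apart, for any of the genes described.

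Col6a1 encodes the alpha 1 chain of collagen VI and lies on chromosome 10 at 76708792 to 76726044 (GRCm38.p6, minus strand, 35 exons). In total mRNA it had 81.8, 67.8 and 67.8 CPM in the KO mice, against 46.9, 46.6 and 57.1 CPM in the WT mice. Each KO value lay above each WT value. The counts behind these values were 276, 221 and 232 in KO and 149, 94 and 174 in WT. The mean was 72.5 ± 8.08 CPM in KO and 50.2 ± 5.94 CPM in WT (SD, n = 3 each), a fold of 1.44 with a 95% interval of 1.224 to 1.68, or 0.52 on the log2 scale (SE 0.114). This difference is what chose the gene (adjusted p = 0.0138 by edgeR, Benjamini-Hochberg over 8206 rows) and is given as a description. The call did not hold without KO mouse 1 (log2 fold change 0.42, adjusted p = 0.293), WT mouse 1 (0.47, adjusted p = 0.225) or WT mouse 2 (0.48, adjusted p = 0.117, all edgeR), or with limma-voom (0.52, adjusted p = 0.0613). The direction was the same in each, with a smaller fold without these mice.

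In the ribosome-contained libraries Col6a1 did not pass the test. It had 50.2, 57.0 and 38.4 CPM in KO mice and 37.8, 49.7 and 49.3 CPM in WT mice. The lowest KO mouse and the lowest WT mouse were nearly alike, and the groups overlapped. The means were 48.5 ± 9.43 CPM in KO and 45.6 ± 6.73 CPM in WT (SD, n = 3 each), a fold of 1.06 (95% interval 0.817 to 1.38; adjusted p = 0.938, edgeR). The interval reaches up to 1.38 and includes no change, and the counts here were 52, 64 and 40 in KO and 45, 57 and 76 in WT.

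The ribosome to total ratio, the CPM of the ribosome-contained library divided by the CPM of total mRNA of the same mouse, is a relative measure of how much of a transcript is under ribosomes. For Col6a1 it was 0.614, 0.842 and 0.566 in KO mice, against 0.806, 1.06 and 0.864 in WT mice. Only KO mouse 2 reached into the WT range. The mean was 0.674 ± 0.147 in KO and 0.912 ± 0.136 in WT (SD, n = 3 each), and the fitted log2 difference of the ratio was -0.44 (SE 0.218; unadjusted p = 0.0514, adjusted p = 0.960, interaction term of edgeR). The ratio shares its total counts with the measure that chose the gene, and the difference between the total and the ribosome-contained change did not pass the test, so the 2 changes are not shown to differ.

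Col6a2, the alpha 2 chain of collagen VI, lies near Col6a1 on the same strand at 76595756 to 76623630 (28 exons) and was counted far less. In total mRNA it had 10.96, 7.36 and 11.4 CPM in KO mice, against 7.24, 8.43 and 4.26 CPM in WT mice. KO mouse 2 fell within the WT range. Its mean was 9.91 ± 2.22 CPM in KO and 6.65 ± 2.15 CPM in WT (SD, n = 3 each), with a log2 fold change of 0.61 (SE 0.288) that had an unadjusted p of 0.0380 and an adjusted p of 0.576 (edgeR). Without WT mouse 3 the log2 fold change was 0.35. The counts were only 24 to 39 per KO library and 13 to 23 per WT library. In ribosome-contained mRNA it had 6.75, 8.91 and 5.76 CPM in KO and 5.04, 6.97 and 7.78 CPM in WT, too few counts (6 to 12 per library) for the filter, and was not tested there.

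Both chains enter the same collagen VI molecule, yet Col6a2 had between 7.47% and 18.1% of the counts of Col6a1 in every one of the 12 libraries. Per kilobase of transcript, the level in total mRNA was 2.51 ± 0.561 CPM for Col6a2 and 17.7 ± 1.97 CPM for Col6a1 in KO mice, and 1.68 ± 0.544 CPM for Col6a2 and 12.2 ± 1.45 CPM for Col6a1 in WT mice (SD, n = 3 each). Col6a3, the alpha 3 chain that joins them, had 10 counts over the 12 libraries in one of its 2 accessions and 0 in the other, and it is named here after its values were seen. How reads shared by the accessions of a gene were counted is not given, so this low count does not bound its level.

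Col4a2, the alpha 2 chain of collagen IV, had the highest level of total mRNA per kilobase among the 7 genes with a known transcript length. The gene lies on chromosome 8 at 11312805 to 11449287 (plus strand, 48 exons) and its 5′ end overlaps that of Col4a1. It had 224, 239 and 219 CPM in KO mice, against 163, 181 and 212 CPM in WT mice. The groups did not overlap, though KO mouse 3 and WT mouse 3 lay close. The mean was 227 ± 10.3 CPM in KO and 185 ± 24.5 CPM in WT (SD, n = 3 each), with a fold of 1.225 (95% interval 1.11 to 1.36) and a log2 fold change of 0.29 (SE 0.0730) that missed the threshold (adjusted p = 0.0719, edgeR). It passed without WT mouse 3 (adjusted p = 0.00264, edgeR) and in 1 model of all 12 libraries (adjusted p = 0.0267, edgeR).

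In the ribosome-contained libraries Col4a2 had 219, 254 and 264 CPM in KO mice and 219, 247 and 233 CPM in WT mice. The groups overlapped almost fully. The mean was 246 ± 23.6 CPM in KO and 233 ± 14.02 CPM in WT (SD, n = 3 each; fold 1.05, 95% interval 0.933 to 1.19; adjusted p = 0.852, edgeR). Its ribosome to total ratio was 0.979, 1.06 and 1.204 in KO mice, against 1.34, 1.37 and 1.10 in WT mice. WT mouse 3 fell inside the KO range. The log2 difference of the ratio was -0.22 (SE 0.119; unadjusted p = 0.0734, adjusted p = 0.960, edgeR).

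Col4a1, the alpha 1 chain that pairs with the Col4a2 product, could hardly be measured. The gene lies head to head with Col4a2 on chromosome 8 at 11198423 to 11312889, and windows from 250 bases before to 50 bases after the start of each gene share 78 bases (RefSeq, GRCm38.p6). The row with most counts was a predicted transcript, and the other 2 accessions had 0 counts. It held 7, 5 and 5 counts of total mRNA in KO mice and 5, 1 and 6 in WT mice, which is 2.07, 1.53 and 1.46 CPM in KO and 1.57, 0.496 and 1.97 CPM in WT. It had no count in ribosome-contained mRNA, where 3 counts would be 1.95 to 2.89 CPM, so only the share of this one accession is bounded. No statement on collagen IV as a whole follows from Col4a2 alone, and it is unknown how reads in the overlap of both genes were assigned.

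**Figure D2:**
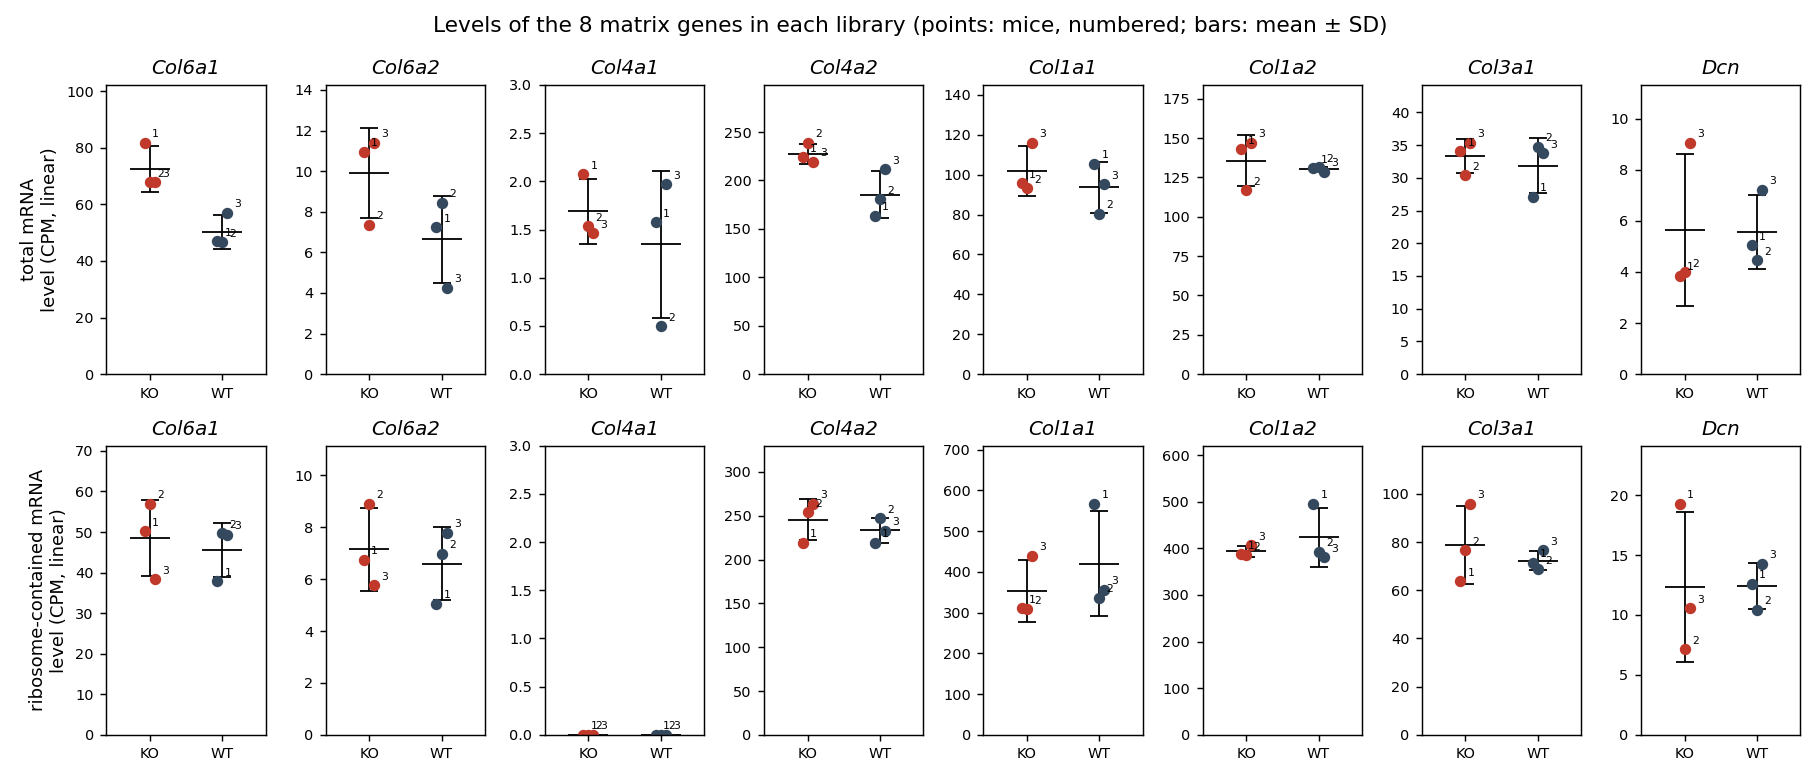
Level in CPM (linear axis from 0) of the 8 genes in each library, KO left and WT right, with total mRNA in the upper row and ribosome-contained mRNA in the lower row. Points are mice with their number, and bars are mean ± SD of 3 mice. Col6a1 and Col4a2 have all KO points above all WT points in total mRNA only.

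Col1a1 and Col1a2 encode both chains of collagen I, the main fibril former of the meninges. Col1a1 (chromosome 11, 94936224 to 94953042, 51 exons) had 95.7, 93.2 and 116 CPM of total mRNA in KO mice, against 106, 80.4 and 95.1 CPM in WT mice. Col1a2 (chromosome 6, 4505618 to 4541543, 52 exons) had 143, 117 and 147 CPM in KO mice, against 131, 131 and 129 CPM in WT mice. Both genes overlapped between groups, with KO mouse 3 the highest of all 6 for each. Col1a1 averaged 102 ± 12.5 CPM in KO and 93.7 ± 12.6 CPM in WT (SD, n = 3 each; fold 1.07, 95% interval 0.938 to 1.23; adjusted p = 0.843, edgeR). Col1a2 averaged 136 ± 16.3 CPM in KO and 130 ± 1.51 CPM in WT (SD, n = 3 each; fold 1.04, 95% interval 0.931 to 1.17; adjusted p = 0.896, edgeR). The intervals lie below the 1.44-fold found for Col6a1, but the difference between the genes was not itself tested.

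Per kilobase of coding sequence, the collagen I transcripts had the highest ribosome-contained levels of the 7 genes with a known coding length. Col1a1 had 311, 308 and 440 CPM in KO mice, against 568, 336 and 356 CPM in WT mice. Col1a2 had 388, 385 and 407 CPM in KO mice, against 496, 393 and 381 CPM in WT mice. WT mouse 1 was the highest library for both, and the remaining WT mice lay within or close to the KO range. The fold was 0.843 for Col1a1 (95% interval 0.489 to 1.45; adjusted p = 0.879, edgeR) and 0.932 for Col1a2 (95% interval 0.829 to 1.05; adjusted p = 0.774, edgeR). The log2 fold changes were -0.25 for Col1a1 and -0.10 for Col1a2, and without WT mouse 1 they were 0.02 for each.

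The ribosome to total ratio of Col1a1 was 3.25, 3.31 and 3.79 in KO mice, against 5.38, 4.18 and 3.74 in WT mice. That of Col1a2 was 2.72, 3.30 and 2.77 in KO mice, against 3.79, 2.99 and 2.97 in WT mice. In both, WT mouse 1 had the highest ratio. The log2 difference was -0.35 (SE 0.342) for Col1a1 and -0.16 (SE 0.126) for Col1a2, each with an adjusted p of 0.998 (edgeR). Without WT mouse 1 these were -0.17 for Col1a1 and -0.04 for Col1a2. With the mouse as a block, which the design allows because both libraries come from one animal, the adjusted p of Col1a1 was 0.306 and no member passed.

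Col3a1, the single chain of collagen III, which co-assembles with collagen I in soft tissue (chromosome 1, 45311538 to 45349706, 51 exons), had 34.1, 30.4 and 35.4 CPM of total mRNA in KO mice and 27.1, 34.7 and 33.8 CPM in WT mice. In ribosome-contained mRNA it had 63.7, 76.6 and 96.0 CPM in KO mice and 71.5, 68.8 and 76.5 CPM in WT mice. Groups overlapped in both kinds. The folds were 1.05 (95% interval 0.860 to 1.29; adjusted p = 0.937, edgeR) and 1.09 (95% interval 0.880 to 1.34; adjusted p = 0.877, edgeR). Its ratio was 2.37 ± 0.444 in KO and 2.30 ± 0.329 in WT (SD, n = 3 each).

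Dcn, the proteoglycan (chromosome 10, 97479500 to 97518163, 8 exons), had 3.85, 3.99 and 9.06 CPM of total mRNA in KO mice and 5.04, 4.47 and 7.22 CPM in WT mice. In ribosome-contained mRNA it had 19.3, 7.13 and 10.6 CPM in KO mice and 12.6, 10.5 and 14.3 CPM in WT mice. The KO mice spread more widely than the WT mice, with mouse 3 high in total and mouse 1 high under ribosomes. Its folds, 0.997 and 0.971, had 95% intervals of 0.617 to 1.61 and 0.585 to 1.61, so a change within those bounds was not excluded. Its ratio was 5.01, 1.79 and 1.17 in KO mice and 2.50, 2.34 and 1.98 in WT mice, with the WT values inside the KO range.

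Of the 8 genes, 7 passed the filter on low counts in total mRNA and 6 in ribosome-contained mRNA and in the ratio. In total mRNA 1 of the 7 tested passed the adjusted threshold, Col6a1, where 0.329% of all 8206 rows did and 0.0853% did with KO higher. An unadjusted p under 0.05 was found for 3 of the 7, Col6a1, Col6a2 and Col4a2, and for 8.15% of all rows. Col6a1 and Col4a2 were the 2 without overlap between groups, where 13.3% of all rows had none and 6.62% lay with KO above WT. Since this contrast chose Col6a1, nothing is read from these counts. In ribosome-contained mRNA none of the 6 tested passed, where 0.211% of 4749 rows did, none had an unadjusted p under 0.05, where 9.48% of rows did, and all 6 overlapped, where 14.7% of rows did not. In the ratio 0 of the 6 passed, and 0 of all 4601 rows (0.0%) did with edgeR, DESeq2 or limma-voom. None of the 6 had an unadjusted p under 0.05, where 228 rows or 4.96% did with edgeR, and all 6 overlapped, where 11.5% of rows did not. The median log2 fold change of the tested members was 0.10 in total mRNA (6 of 7 above 0, as were 51.9% of all rows, whose median was 0.01), 0.02 in ribosome-contained mRNA (3 of 6 above 0, as were 50.1% of rows) and -0.19 in the ratio (1 of 6 above 0, where 51.1% of rows were). With a mouse left out these medians ran from 0.03 to 0.23 in total mRNA, from -0.03 to 0.08 in ribosome-contained mRNA and from -0.303 to -0.0999 in the ratio.

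**Figure D3:**
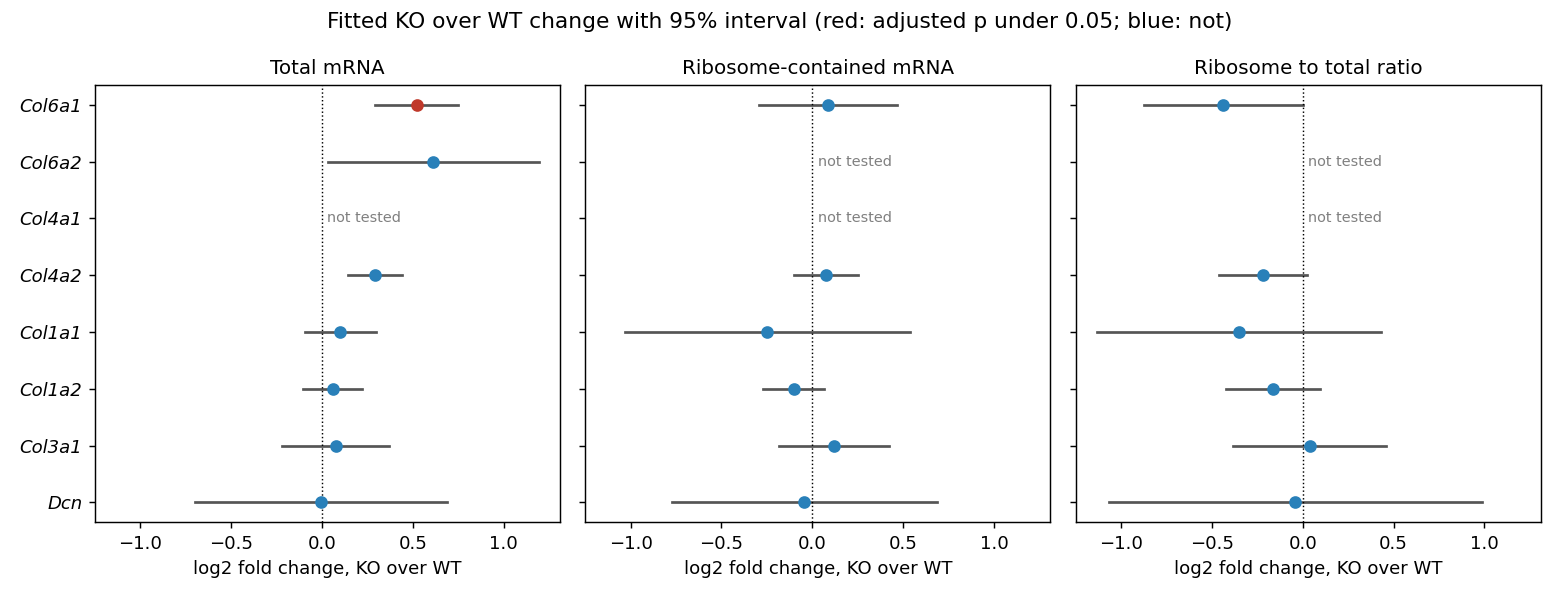
Fitted log2 fold change, KO over WT, with its 95% interval for total mRNA, ribosome-contained mRNA and the ribosome to total ratio (edgeR). Red marks an adjusted p under 0.05, which Col6a1 in total mRNA alone reached among the 8 genes; rows below the count filter are marked as not tested.

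The genes differed far more from one another in their ribosome to total ratio than the groups did. Over all 6 mice the mean ratio was 3.94 for Col1a1 and 3.09 for Col1a2, above those of 96.2% and 92.4% of the 4601 rows tested in both kinds. Dcn, at 2.46, and Col3a1, at 2.33, lay above 85.8% and 83.2% of rows. Col4a2 (1.18) lay above 44.5% of rows and Col6a1 (0.793) above 24.7%, both below the median of 1.29. The fibrillar collagens, which hold the longest glycine runs printed above and the fewest phenylalanine codons, thus had the higher ratios among the collagens, while Dcn had a high ratio without any run. With 6 genes this is a description. A ratio of CPM also depends on transcript length and on reads outside the coding sequence, which total mRNA libraries hold and ribosome-contained ones mostly lack.

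**Figure D4:**
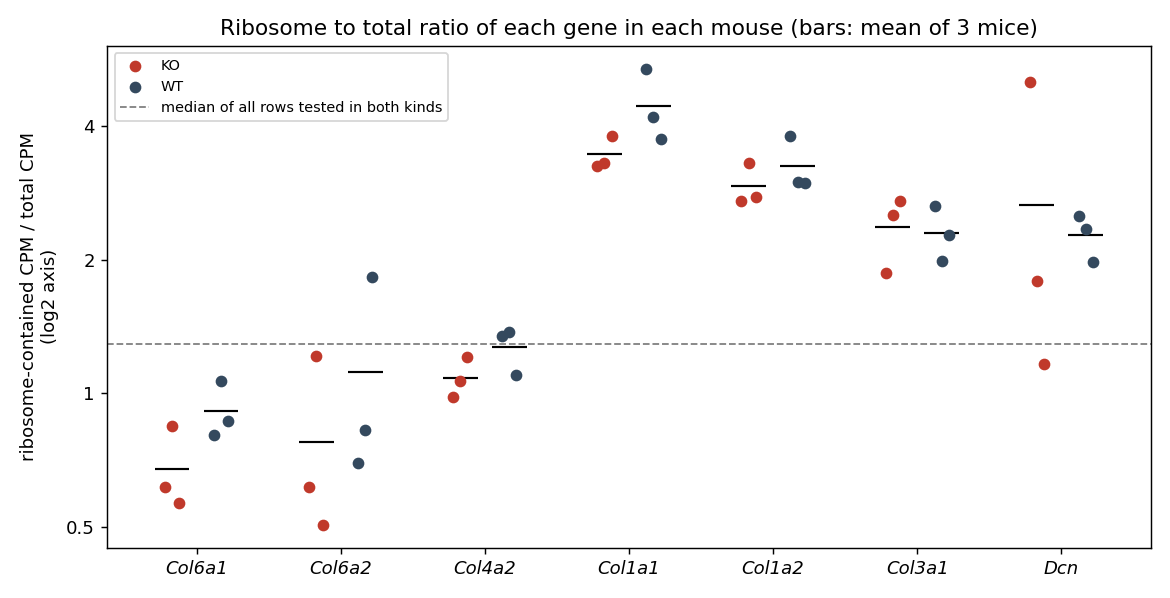
Ribosome to total ratio (CPM divided by CPM, log2 axis) of 7 genes in each mouse, KO left and WT right of each gene name, with the mean of 3 mice as a bar and the median of 4601 rows (1.29) as a dashed line. Col1a1 lies between 3.25 and 5.38 and Col6a1 between 0.566 and 1.06, and the groups overlap for every gene.

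Levels can be compared between genes per length. Per kilobase of transcript, total mRNA averaged 35.2 ± 1.5996 CPM in KO and 28.7 ± 3.80 CPM in WT for Col4a2, the highest of the 7 (SD, n = 3 each). Col1a2 followed with 25.3 ± 3.06 CPM in KO and 24.4 ± 0.283 CPM in WT. Col6a1 (17.7 ± 1.97 CPM in KO, 12.2 ± 1.45 CPM in WT) and Col1a1 (17.1 ± 2.11 CPM in KO, 15.8 ± 2.13 CPM in WT) lay within each other's spread in KO mice. Col3a1 (5.98 ± 0.467 CPM in KO, 5.73 ± 0.749 CPM in WT) stood above Dcn (3.20 ± 1.69 CPM in KO, 3.17 ± 0.825 CPM in WT) and Col6a2, which overlapped in their spread in KO mice.

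The order was another in ribosome-contained mRNA per kilobase of coding sequence. Col1a2 came first with 95.6 ± 2.91 CPM in KO and 103 ± 15.3 CPM in WT, and Col1a1 (81.0 ± 17.2 CPM in KO, 96.3 ± 29.4 CPM in WT) was within its spread. Col4a2 had 48.0 ± 4.61 CPM in KO and 45.5 ± 2.74 CPM in WT. Col3a1 (17.9 ± 3.70 CPM in KO, 16.5 ± 0.891 CPM in WT) and Col6a1 (15.8 ± 3.07 CPM in KO, 14.8 ± 2.19 CPM in WT) did not differ beyond their spread. Dcn had 11.6 ± 5.91 CPM in KO and 11.7 ± 1.80 CPM in WT, and Col6a2 had 2.30 ± 0.519 CPM in KO and 2.13 ± 0.454 CPM in WT.

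Across the 12 libraries, with each kind centred on its own mean, Col1a1 and Col1a2 varied together (Pearson r = 0.76 over 12 libraries of 6 mice, log2 CPM), as did Col6a1 and Col4a2 (r = 0.64). Col6a1 and Col1a1 had r = -0.37. Among all 4601 rows, those whose pattern was most like that of Col6a1 were Fam193a (r = 0.87), the noncoding transcript 9330133O14Rik (r = 0.86) and the small nucleolar RNA Snora7a (r = 0.85), and Col4a2 ranked 64th. None of these 3 rows passed in any comparison. Snora7a averaged only 3.58 CPM in KO and 1.14 CPM in WT of total mRNA. It came through the count filter mainly by its KO libraries, so nothing is read from its rank. The libraries share genotype, mouse and depth, so the correlations describe likeness only.

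Other collagen genes gave no call. Of 37 on the list, 26 had a count and 7 were tested in total mRNA, 0 of which passed, with a median log2 fold change of -0.01 and 3 above 0. Col20a1 was the most counted, with 72.4 ± 3.93 CPM in KO and 78.2 ± 10.01 CPM in WT (SD, n = 3 each; log2 fold change -0.10). Col9a2, a chain of the fibril-associated collagen IX, had 39.0 ± 6.02 CPM in KO and 41.4 ± 1.62 CPM in WT, and Col8a1, a short-chain collagen of vessels, had 18.4 ± 2.77 CPM in KO and 14.9 ± 2.49 CPM in WT.

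Genes for the modification and export of collagen gave no call. Of 30 genes, 14 were tested in total mRNA and 0 passed (6 above 0, median -0.01), and of 11 tested in ribosome-contained mRNA 0 passed (6 above 0, median 0.06). P4hb, the beta subunit of prolyl 4-hydroxylase, had 237 ± 9.44 CPM of total mRNA in KO and 233 ± 3.57 CPM in WT. Ppib, a prolyl isomerase of the endoplasmic reticulum, had 281 ± 12.3 CPM in KO and 294 ± 9.01 CPM in WT, and Mia3, which helps load procollagen into transport vesicles, had 204 ± 8.17 CPM in KO and 202 ± 2.21 CPM in WT (SD, n = 3 each). Serpinh1, the collagen chaperone, had 6 counts in all, in 1 of its 6 accessions, and is named after its values were seen.

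Partners in the basement membrane were likewise without a call, 0 of 6 tested among 22 in total mRNA (4 above 0, median 0.03) and 0 of 6 in ribosome-contained mRNA. Nid1, which bridges laminin and collagen IV, had 55.1 ± 4.93 CPM of total mRNA in KO and 50.5 ± 5.81 CPM in WT. The laminin chain Lamc1 had 91.2 ± 5.51 CPM in KO and 96.9 ± 10.1 CPM in WT, and Lamc3 had 35.1 ± 4.48 CPM in KO and 33.7 ± 7.71 CPM in WT (SD, n = 3 each). Hspg2, Sparc and Fn1, which encode perlecan, the collagen-binding SPARC and fibronectin, had no count in any accession. The small leucine-rich proteoglycans related to decorin gave 0 of 4 in total mRNA (2 above 0, median 0.07), with Fmod at 103 ± 8.92 CPM in KO and 115 ± 8.79 CPM in WT and Ogn at 32.0 ± 7.56 CPM in KO and 26.8 ± 1.45 CPM in WT.

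Collagen receptors gave 0 of 7 in total mRNA (5 above 0, median 0.15). Itgb1, the beta subunit shared by the collagen-binding integrins, had 254 ± 17.8 CPM in KO and 267 ± 13.8 CPM in WT, and Cspg4, the NG2 proteoglycan that binds collagen VI, had 119 ± 4.30 CPM in KO and 115 ± 10.6 CPM in WT (SD, n = 3 each). Genes of matrix turnover gave 0 of 10 (4 above 0, median -0.01), with the metalloproteinase inhibitor Timp3 at 640 ± 46.8 CPM in KO and 603 ± 19.99 CPM in WT. The TGF-beta list, a pathway known to raise collagen transcription, gave 0 of 10 in total mRNA (4 above 0, median -0.16) and 0 of 8 in ribosome-contained mRNA (4 above 0, median -0.00238). Its members thus lay on both sides of 0. Its summed level, much of it from Ccn2, did not overlap between groups in either kind. In total mRNA it was 371 to 391.9 CPM in KO and 416 to 438 CPM in WT. In ribosome-contained mRNA it was 472 to 545 CPM in KO and 555.1 to 659 CPM in WT. Of single rows, 13.3% in total mRNA and 14.7% in ribosome-contained mRNA had no overlap either. No such share was taken over list sums, so nothing is read from these sums. Ccn2, a matricellular target of that pathway, had 158 ± 8.63 CPM in KO and 185 ± 13.99 CPM in WT of total mRNA (log2 fold change -0.22, adjusted p = 0.279, edgeR), and 294 ± 38.3 CPM in KO and 375 ± 54.0 CPM in WT of ribosome-contained mRNA (log2 fold change -0.34, adjusted p = 0.274, edgeR).

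**Figure D5:**
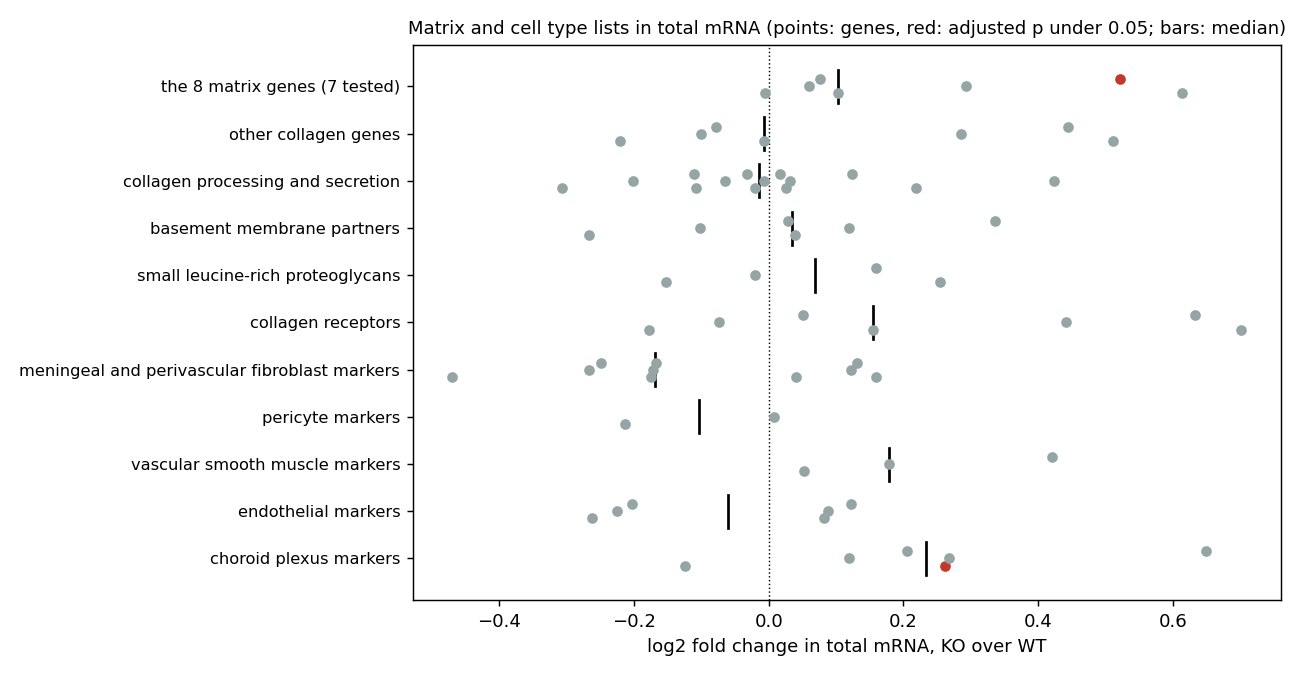
Log2 fold change in total mRNA, KO over WT, of the tested genes of each matrix and cell type list, with the list median as a bar. Red marks an adjusted p under 0.05 (edgeR), which Col6a1 and Ttr reached among the genes drawn.

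Markers of the cells that make these collagens were compared beside Col6a1. Meningeal and perivascular fibroblast markers had counts for 15 of 17 genes (Nov and Apod had none) and summed in total mRNA to 290 to 347 CPM in KO and 334 to 346 CPM in WT, which overlapped, with a median of -0.17 over 10 tested genes and 0 calls. Pericyte markers had counts for 5 of 10, with Pdgfrb, Kcnj8, Anpep, Higd1b and Atp13a5 at 0, and summed to 547 to 583 CPM in KO and 574 to 646 CPM in WT. Of 2 tested, 1 lay above 0, with a median of -0.10 and 0 calls. Smooth muscle markers had counts for 5 of 7, with Myh11 and Cnn1 at 0, and summed to 26.7 to 41.8 CPM in KO and 27.8 to 38.7 CPM in WT. All 3 tested lay above 0, with a median of 0.18 and 0 calls. Endothelial markers had counts for 12 of 20, with Pecam1 and Cdh5 among the 8 at 0, and summed lower in KO, at 305 to 341 CPM against 343 to 374 CPM in WT, with 0 of 6 genes called, 3 above and 3 below 0 and a median of -0.06. In ribosome-contained mRNA the endothelial sums overlapped, at 470 to 535 CPM in KO and 487 to 559 CPM in WT. Of single rows in total mRNA, 13.3% had no overlap between groups, as the endothelial sums had none there. These sums rest on the markers that had counts, with only 2 pericyte and 3 smooth muscle markers tested. The part of these cells in the Col6a1 values was not tested.

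The summed choroid plexus markers were higher in KO mice than in WT mice, and most of the sum was 1 gene. They had counts for 11 of 12 genes (Folr1 had none) and summed to 2913 to 2948 CPM in KO and 2340 to 2580 CPM in WT, most of it from Ttr, the thyroid hormone carrier made by choroid plexus epithelium. Ttr had 2683 ± 7.50 CPM in KO and 2237 ± 118 CPM in WT (SD, n = 3 each; log2 fold change 0.26, adjusted p = 0.000492, edgeR), and it was the 1 of 6 tested markers that passed. Of the others, Aqp1, Clic6, Kl and Sostdc1 had log2 fold changes of 0.12 to 0.65 and Kcnj13 one of -0.12. In ribosome-contained mRNA these markers summed to 6600 to 7385 CPM in KO and 5012 to 5560 CPM in WT, higher in KO there too. All 6 tested lay above 0 there, Kcnj13 at a log2 fold change of 0.28. Only Ttr passed there (log2 fold change 0.41, adjusted p = 3.7e-06, edgeR). The part of choroid plexus in the Col6a1 values was not tested. Red blood cell markers summed to 145 to 199 CPM in KO and 122 to 185 CPM in WT and overlapped. Neuron and oligodendrocyte sums were lower in KO, oligodendrocyte markers at 446 to 502 CPM against 504 to 518 CPM in WT, astrocyte and microglia sums overlapped, and the part of any of these cell types, endothelium included, in the Col6a1 values was not tested.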

How the data were processed

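Each brain gave total mRNA and ribosome-contained mRNA libraries. For 12 HiSeq libraries the authors deposited raw counts per RefSeq transcript accession, per the file headers; a table of ribosomal A-site codon counts from 6 MiSeq libraries was not used. The submitters' processing notes name Bowtie2, HISAT2, HTSeq and mm10, without versions or roles. How strand and reads shared between transcripts were treated is not given in the sources used here. Column names carry genotype, mouse and RNA kind but no instrument, which was taken from the table's name.

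Of 106519 rows, 31089 had a count, and 86040 matched a symbol (98.0% of counts). Genes, accession rows and lists were chosen with earlier results of these data known. Named were the 8 genes, from each list the genes with an adjusted p under 0.05 and the 3 most counted, and the 3 rows most like Col6a1.

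Each kind was tested with edgeR 4.0.16 (robust quasi-likelihood, TMM, minimum count 10, minimum total 15; R 4.3.3), KO against WT, and the ratio as the interaction of genotype and kind over rows passing in both kinds. P-values were Benjamini-Hochberg adjusted over all rows, with a threshold of 0.05. CPM use TMM library sizes; 95% intervals use the model's SE and degrees of freedom. The fits were tested on simulated data. Alternatives were DESeq2 1.42.0, limma-voom (3.58.1), other size factors, no filter, summed accessions, a replicate block and leaving out each mouse. Mouse numbers did not pair KO with WT (correlations of same-numbered libraries -0.0724 to 0.0278); total and ribosome-contained libraries of one number come from the same mouse by the labels' source names (0.0267 to 0.155). Locations are RefSeq GRCm38.p6 and coding sequences GENCODE M21. Intervals rest on the model's spread between mice, which borrows from other rows to a degree that varies by gene. Its degrees of freedom were 47.0 for Col6a1 in total mRNA and 4.35 for Col1a1 in ribosome-contained mRNA. Such intervals do not measure the spread of a single gene between its own mice alone. The limit from 3 counts covers counting error only.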

Additional observations from a re-analysis of the deposited data

How the results depend on the processing

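Rows called in total mRNA numbered 27, with 43 without a filter on low counts and 9 to 42 when each mouse was left out. In ribosome-contained mRNA 10 rows were called, with 27 without the filter, 48 with the replicate block on mouse number, which does not pair the groups, and 4 to 24 with a mouse left out. In the ratio 0 were called, with 4 without the filter, 4 with the mouse as replicate block and 0 to 4 with a mouse left out; no member was among the calls with the block. The members' median in the ratio, -0.19, ran from -0.303 to -0.0999 with a mouse left out. Col6a1 in total mRNA stayed between 0.425 and 0.626 (log2) under all 13 alternatives and lost its call in 4 (limma-voom, and without KO mouse 1, WT mouse 1 or WT mouse 2), and Col4a2 ran from 0.203 to 0.405. With a mouse left out, these log2 fold changes changed sign. In total mRNA they were Col1a1 (-0.00714 to 0.202), Col1a2 (-0.00520 to 0.153), Col3a1 (-0.0353 to 0.135) and Dcn (-0.531 to 0.229; 0.0886 with accessions summed). In ribosome-contained mRNA they were Col6a1 (-0.0495 to 0.231), Col1a1 (-0.431 to 0.0236), Col1a2 (-0.179 to 0.0247), Col3a1 (-0.0426 to 0.243) and Dcn (-0.515 to 0.242). In the ratio they were Col3a1 (-0.0884 to 0.192) and Dcn (-0.717 to 0.565). The cause was not tested. The block changed no member's call. Counts of at most 39 per library for Col6a2, Col4a1 and Dcn limit what can be detected in them.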
